A study of Homo sapiens with 4 samples.

Results

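The 10 genes described here encode protein kinases, or a close relative of one in the case of BUB1B, that drive and control mitosis. CDK1 and WEE1 set the time of entry, AURKA, PLK1, PLK4 and NEK2 act at centrosomes and spindle poles, and AURKB, BUB1, BUB1B and TTK act at kinetochores and in the spindle checkpoint. They were chosen by symbol and matched by Ensembl gene ID in GENCODE release 29, which found all 10 among the 58735 genes of the count files. All 10 were also among the 15912 genes with enough reads to be tested. Polyadenylated RNA was sequenced from A549 cells, a human lung adenocarcinoma line, at a time labelled day 2. The shControl group was labelled wild type and infected with a lentivirus carrying a control hairpin. The shRALY group was labelled RALY knockdown and infected with a lentivirus carrying a hairpin against RALY, a member of the hnRNP family that binds RNA. Both groups thus carried a lentivirus, each held 2 libraries, and the labels do not say how many hairpin sequences were used or whether replicates were separate cultures. The p-values therefore measure the spread between these libraries, which may be technical and is in part pooled over genes.

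Many mitotic kinases are made anew in each cell cycle. In general, their transcripts are kept low in resting and early G1 cells, accumulate through S and G2 phase and reach their highest level as cells enter mitosis, after which many of the proteins are destroyed. Much of this timing is attributed to the DREAM repressor and to the activator complexes of MYBL2 and FOXM1, which act on these promoters through a short element called the CHR (cell cycle genes homology region), often placed near CCAAT boxes bound by NF-Y. Because a bulk sample averages over cells, fewer dividing cells and less kinase RNA in each cell cannot be told apart in these data.

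All 10 mitotic kinase genes were lower in shRALY, and none was higher, at a Benjamini-Hochberg adjusted p under 0.05 by edgeR's quasi-likelihood test. The counts were also 10 lower and 0 higher by DESeq2 and at an unadjusted edgeR p under 0.05. Over all tested genes, 20.4% were called lower and 20.6% higher by the same rule. In each of the 10 genes both shRALY libraries lay below both shControl libraries, a pattern found in 35.4% of tested genes. The median log2 fold change of the 10 genes was -3.13, an 8.76-fold lower level, against -0.01 over all tested genes. By fitted fold change, 9 of the 10 were lower by 4-fold or more, where 2.07% of tested genes were called with a fall of that size, and the remaining gene, WEE1, was lower by 2.13-fold, where 6.57% of tested genes were called with a fall of 2-fold or more. Together the 10 genes took 0.0988% and 0.0920% of all counts in shControl replicates 1 and 2, and 0.0137% and 0.0115% in shRALY replicates 1 and 2.

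**Figure D1:**
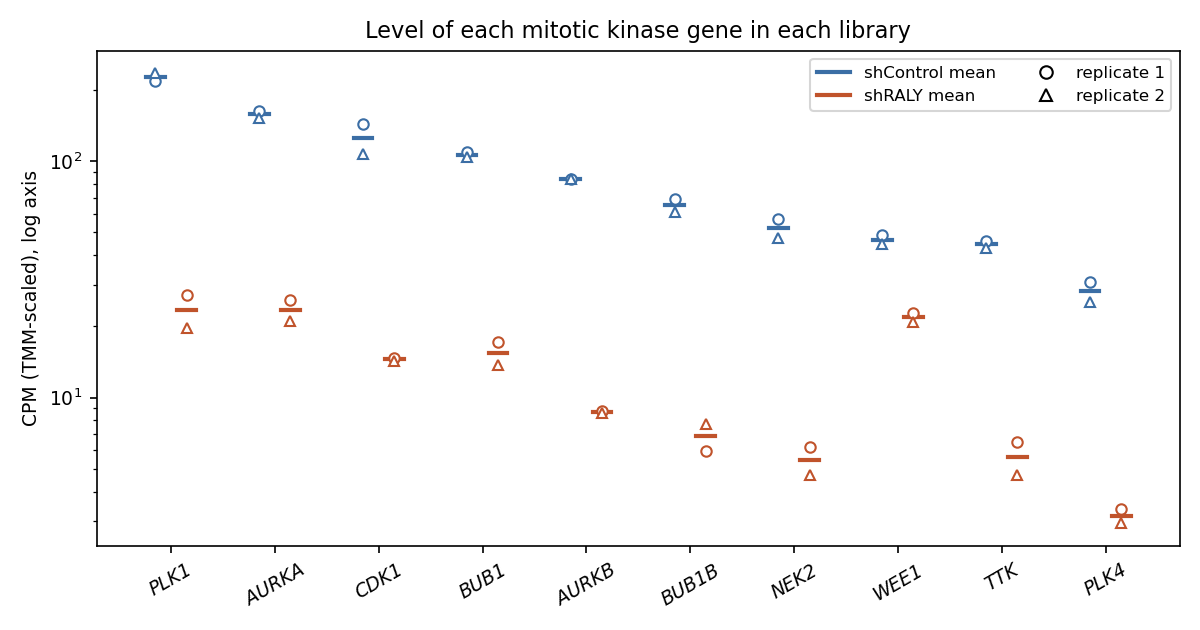
Level of each of the 10 mitotic kinase genes in CPM (read counts scaled to library size by TMM, log axis), ordered by the shControl mean; circles and triangles are replicates 1 and 2 and bars are group means of 2 libraries. The groups do not overlap for any gene, and the gap is smallest for WEE1, with means of 46.6 and 21.8 CPM.

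RALY itself, the target of the hairpin, had 2208 and 2272 counts in shControl and 751 and 679 in shRALY, so that its RNA stood at 32.1% of the control level (log2 -1.64, SE 0.11; edgeR adjusted p = 5.85e-11). Total counts ranged from 16745818 to 18632787 per library. Levels were taken as normalised read counts in CPM, scaled to library size by TMM. All 6 markers of epithelial lines were tested, and they summed to 8163 to 8890 CPM in shControl and 9291 to 9396 CPM in shRALY. Of these, 3 were higher and 0 lower. KRT19 rose 3.27-fold, from 95.4 ± 7.39 to 311 ± 17.4 CPM (SD, n = 2), under all alternatives run, whereas the calls of CDH1 (1.38-fold) and KRT7 (1.19-fold) were each lost under several of them. KRT8, the most abundant, did not pass, at 3723 ± 325 and 3846 ± 153 CPM. The labels call the cells alveolar basal epithelial. Of 8 alveolar type II markers 2 were tested: ABCA3 did not pass, at 87.7 ± 21.9 and 95.4 ± 9.91 CPM, except as higher without shControl replicate 2 (edgeR adjusted p = 0.000589), and LAMP3 had 1 and 4 counts in shControl and 500 and 594 in shRALY (log2 7.72, SE 0.34; edgeR adjusted p = 2.25e-14). The surfactant gene SFTPC had 2 counts in each shControl library and 0 in each shRALY library. Of 4 airway basal markers, KRT5 and KRT14 had between 0 and 6 counts, TP63 was lower (60 and 56 counts in shControl, 25 and 26 in shRALY) and NGFR higher (2 and 6, then 19 and 11). Neither of the last calls held by DESeq2 (adjusted p = 0.0784 and 0.218). Whether these marker changes play a part in the kinase values was not tested. Immune markers summed to 10.6 to 11.6 CPM in the control libraries and 8.25 to 11.4 CPM in the shRALY libraries over 7 genes, with CD3E and MS4A1 at 0 counts in all libraries. Fibroblast markers summed to 19.7 to 20.2 and 15.1 to 18.2 CPM over 6 genes, and endothelial markers to 0.50 to 0.82 and 0.05 to 0.18 CPM over 4 genes. Of these, 2 immune and 3 fibroblast markers had enough reads to be tested, and 0 passed by edgeR, also at an unadjusted p under 0.05.

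Promoters of the members were searched for short sequence elements that the genes might share. RefSeq windows of 300 bases on GRCh38.p14, reaching from 250 bases before an annotated transcript start to 50 bases from it, were matched for 7 of the 10 members (AURKB, BUB1, BUB1B, CDK1, NEK2, PLK1 and PLK4), with 11 windows because some genes have several starts. Windows of AURKA, TTK and WEE1 were not used here. The 4 windows below are shown because they hold CHR and CCAAT elements together in different arrangements, or, in NEK2, CCAAT alone. They are PLK1 (chr16:23678639-23678938, plus strand), the later of 2 CDK1 starts (chr10:60778228-60778527, plus strand), BUB1 (chr2:110678014-110678313, minus strand) and NEK2 (chr1:211675572-211675871, minus strand). Each is written from 5′ to 3′ along the gene, in lower case, with capitals marking every match to the motifs searched.
PLK1: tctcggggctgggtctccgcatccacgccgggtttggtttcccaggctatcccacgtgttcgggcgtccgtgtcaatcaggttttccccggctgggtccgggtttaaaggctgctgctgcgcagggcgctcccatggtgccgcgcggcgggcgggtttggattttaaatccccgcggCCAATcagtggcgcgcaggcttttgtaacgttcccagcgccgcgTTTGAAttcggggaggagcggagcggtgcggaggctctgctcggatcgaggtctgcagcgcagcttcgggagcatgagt
CDK1: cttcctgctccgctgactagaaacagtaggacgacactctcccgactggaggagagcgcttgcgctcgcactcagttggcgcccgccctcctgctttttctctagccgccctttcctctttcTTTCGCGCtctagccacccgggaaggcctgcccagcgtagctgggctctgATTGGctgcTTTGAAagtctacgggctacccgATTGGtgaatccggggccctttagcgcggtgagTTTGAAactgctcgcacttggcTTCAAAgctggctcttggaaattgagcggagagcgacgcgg
BUB1: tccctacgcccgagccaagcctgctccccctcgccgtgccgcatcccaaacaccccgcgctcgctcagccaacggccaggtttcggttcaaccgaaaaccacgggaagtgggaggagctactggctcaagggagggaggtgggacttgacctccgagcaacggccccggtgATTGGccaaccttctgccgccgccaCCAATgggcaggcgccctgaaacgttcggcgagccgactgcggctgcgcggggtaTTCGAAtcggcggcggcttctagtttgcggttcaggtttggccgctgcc
NEK2: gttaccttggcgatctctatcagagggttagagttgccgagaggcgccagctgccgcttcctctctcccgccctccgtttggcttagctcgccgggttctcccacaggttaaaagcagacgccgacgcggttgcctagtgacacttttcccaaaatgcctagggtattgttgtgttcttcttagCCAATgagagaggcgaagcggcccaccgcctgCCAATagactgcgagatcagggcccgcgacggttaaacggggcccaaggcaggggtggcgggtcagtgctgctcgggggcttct

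The motifs searched on both strands were TTTGAA and TTCGAA for the CHR, CCAAT for the CCAAT box, and TTTGGCGC, TTTCGCGC and GGCGGGAA for E2F sites. None of the capitals overlap between motifs in the windows printed. In PLK1 a CCAAT at 73 bases before the start was followed by a TTTGAA at 29 bases before it. The CDK1 window held 3 CHR matches, 2 CCAAT matches on the opposite strand and the E2F match TTTCGCGC. BUB1 held 2 CCAAT matches and a TTCGAA just after the start, whereas NEK2 held 2 CCAAT matches and no CHR match. Over the 7 members, 5 had a CHR match in at least 1 window, 6 had a CCAAT match and 1, CDK1, had an E2F match. Among the windows not printed, that of BUB1B and the first of PLK4 held a CHR match and no CCAAT, and the second of PLK4 held neither. By window, a CHR match stood in 6 of 11, a CCAAT match in 8 of 11, both in 4 of 11 and an E2F match in 2 of 11. The 2 windows of AURKB overlap, as do the 2 of CDK1. The AURKB CCAAT match and the CDK1 E2F match were therefore each counted in 2 windows. Of the 35116 windows in the whole table, 16.4% held a CHR match, 34.6% a CCAAT match, 6.38% both and 4.24% an E2F match. A match describes letters in the window and does not show that a factor was bound there.

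**Figure D2:**
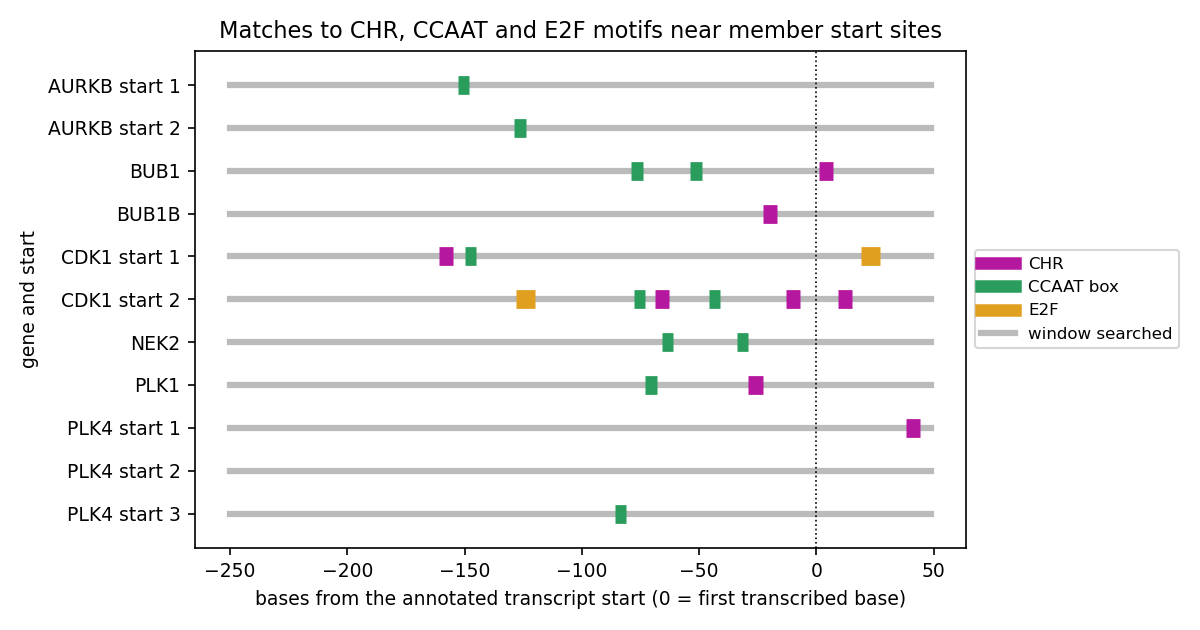
Position of CHR (purple), CCAAT box (green) and E2F (yellow) matches in the 11 promoter windows of 7 mitotic kinase genes, in bases from the annotated transcript start; grey lines are the windows searched. The CCAAT and CHR matches of PLK1 lie 73 and 29 bases before the start, and the second of the 3 PLK4 starts has no match.

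CDK1 and WEE1 control entry into mitosis from opposite sides. CDK1, the cyclin-dependent kinase that triggers mitosis (chromosome 10, 60778331 to 60794852, plus strand, GRCh38), stood at 143 and 107 CPM in shControl replicates 1 and 2 and at 14.7 and 14.3 CPM in shRALY replicates 1 and 2. The shControl libraries differed from each other more for CDK1 than for any other member, by 1.33-fold, yet both were far above the shRALY libraries. Its fold change was 8.63-fold lower (log2 -3.11, SE 0.14; edgeR adjusted p = 4.85e-14). WEE1, which phosphorylates CDK1 and holds it inactive until the cell is ready to divide (chromosome 11, 9573681 to 9593457, plus strand), stood at 48.7 and 44.4 CPM in shControl and at 22.8 and 20.9 CPM in shRALY. Again the groups did not overlap, but the fall was the smallest of the 10, at 2.13-fold (log2 -1.09, SE 0.13; edgeR adjusted p = 4.56e-07). The 95% interval of the WEE1 log2 change, -1.36 to -0.82, did not touch the interval of any of the other 9 members, which together spanned -3.60 to -2.48.

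Counts of WEE1 relative to those of CDK1 in the same library do not depend on how libraries are scaled. That ratio was 0.340 and 0.415 in shControl replicates 1 and 2 and 1.55 and 1.46 in shRALY replicates 1 and 2, a rise of 2.00 on the log2 scale. WEE1 shares its task with PKMYT1, a membrane-bound kinase that also inhibits CDK1, and PKMYT1 fell 8.20-fold. The WEE1 to PKMYT1 ratio was 0.830 and 0.619 in shControl and 2.77 and 2.73 in shRALY. CDC25C, a phosphatase that removes the inhibitory marks, went from 13.6 ± 0.56 to 1.09 ± 0.01 CPM (SD, n = 2), and the WEE1 to CDC25C ratio moved from 3.68 and 3.17 to 20.9 and 18.9. In each of these 3 ratios the shRALY libraries lay above the shControl libraries. With 2 libraries against 2, the two-sided exact permutation test gave p = 0.333 for each ratio, the smallest value it can give (Benjamini-Hochberg 0.389 over the 21 ratios computed), so no ratio passed a threshold of 0.05. Genes on the opposite strand cover 31.6% of PKMYT1 exonic sequence, so reads of PKMYT1 and of these genes may be mixed.

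The cyclins that activate CDK1 also fell. CCNB1, the main mitotic cyclin, fell 6.04-fold, from 250 ± 18.4 to 41.4 ± 2.45 CPM, CCNB2, a second B-type cyclin, fell 6.51-fold, and CCNA2, the cyclin of S and G2 phase, fell 8.32-fold. The CDK1 to CCNA2 count ratio was 1.45 and 1.28 in shControl and 1.44 and 1.21 in shRALY, so the groups overlapped. The CDK1 to CCNB1 ratio did not overlap, at 0.544 and 0.452 in shControl and 0.340 and 0.361 in shRALY. Of 12 listed CDK1 partners and regulators, all 12 were tested, and their median log2 fold change was -1.45. Of these, 9 were lower and 1 higher (20.4% and 20.6% of all tested genes). The higher gene was CCNH, a subunit of the CDK-activating kinase, at 23.3 ± 3.70 and 34.4 ± 0.70 CPM in shControl and shRALY, with 22.3% of its exonic sequence covered by genes on the other strand. Its catalytic partner CDK7 did not pass, at 30.1 ± 1.40 and 32.3 ± 0.46 CPM. Without shRALY replicate 1 or 2 the count of lower genes was 8, since CDC25B lost its call (edgeR adjusted p = 0.351 and 0.272).

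Among the kinases of centrosomes and spindle poles, PLK1 showed the largest fall of the 10 members. PLK1, the polo-like kinase that matures centrosomes and drives several steps of mitosis (chromosome 16, 23677656 to 23690367, plus strand), stood at 219 and 235 CPM in shControl replicates 1 and 2 and at 27.3 and 19.7 CPM in shRALY replicates 1 and 2. Its shRALY libraries differed from each other by 1.38-fold, the widest replicate gap of the 10 genes. The fall was 9.65-fold (log2 -3.27, SE 0.14; edgeR adjusted p = 1.07e-14), and 60 tested genes had a larger one. AURKA, the Aurora kinase of spindle poles (chromosome 20, 56369389 to 56392337, minus strand), stood at 163 and 153 CPM in shControl and at 25.9 and 21.2 CPM in shRALY. All 4 of its libraries kept to their group, and it fell 6.69-fold (log2 -2.74, SE 0.13; edgeR adjusted p = 4.85e-14), the smallest fall after that of WEE1.

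PLK4 and NEK2 stand at other steps of the centrosome cycle. PLK4, the kinase that starts centriole duplication (chromosome 4, 127880861 to 127899195, plus strand), stood at 30.9 and 25.4 CPM in shControl and at 3.37 and 2.93 CPM in shRALY. Those shRALY values rest on 62 and 48 reads, the fewest of any member, and the fall of 8.89-fold carried the widest standard error (log2 -3.15, SE 0.19; edgeR adjusted p = 6.92e-12). NEK2, which releases the link between centrosomes before mitosis (chromosome 1, 211658657 to 211675630, minus strand), stood at 56.9 and 47.3 CPM in shControl and at 6.20 and 4.71 CPM in shRALY. Replicate 1 was the higher library of both groups for both genes, by 1.15-fold to 1.32-fold. NEK2 fell 9.49-fold (log2 -3.25, SE 0.17; edgeR adjusted p = 3.25e-13).

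Partners of these kinases fell to different degrees. TPX2, which activates AURKA on the spindle, went from 282 ± 17.9 to 41.7 ± 2.99 CPM, and the AURKA to TPX2 count ratio was 0.553 and 0.566 in shControl and 0.593 and 0.535 in shRALY, with the groups overlapping. BORA, the cofactor through which AURKA activates PLK1, was lower by log2 -1.10, and the AURKA to BORA ratio was 19.9 and 20.0 in shControl and 6.45 and 6.29 in shRALY. DIS3, on the other strand, covers 37.0% of BORA exonic sequence, which makes BORA counts uncertain. All 9 listed centriole partners of PLK4 were lower, with a median log2 fold change of -1.34 (8 without shControl replicate 1, shRALY replicate 1 or shRALY replicate 2 and by DESeq2, since CEP63 then did not pass). By the same edgeR threshold, 20.4% of all tested genes were lower. CENPJ, a centriole elongation factor, fell 3.90-fold and CCP110, a cap of the centriole end, fell 2.54-fold. STIL, which binds and activates PLK4, went from 47.2 ± 5.20 to 9.40 ± 0.93 CPM, and the PLK4 to STIL ratio was 0.607 and 0.582 in shControl and 0.335 and 0.336 in shRALY. The ratio of PLK4 to its scaffold CEP152 was 1.65 and 1.76 in shControl and 0.608 and 0.774 in shRALY. PLK4 was thus lower relative to either partner in both shRALY libraries, although no ratio could reach an exact permutation p under 0.333.

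The kinases of kinetochores and of the spindle checkpoint fell by 6.87-fold to 9.61-fold. AURKB, the enzyme of the chromosomal passenger complex that corrects faulty microtubule attachments (chromosome 17, 8204733 to 8210600, minus strand), stood at 84.1 and 83.7 CPM in shControl and at 8.81 and 8.62 CPM in shRALY. Its replicates were the closest of any member in both groups, and the fall was 9.61-fold (log2 -3.27, SE 0.13; edgeR adjusted p = 7.53e-15). TTK, also called MPS1, which recruits the other checkpoint proteins to unattached kinetochores (chromosome 6, 80003887 to 80042527, plus strand), stood at 45.8 and 43.1 CPM in shControl and at 6.47 and 4.71 CPM in shRALY. The shControl libraries were close and the shRALY libraries 1.38-fold apart, with a fall of 7.90-fold between groups (log2 -2.98, SE 0.17; edgeR adjusted p = 1.38e-12).

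BUB1 and BUB1B are related checkpoint proteins that both bind BUB3. BUB1, a kinase that marks the centromere for the passenger complex (chromosome 2, 110637698 to 110678114, minus strand), stood at 109 and 104 CPM in shControl and at 17.2 and 13.8 CPM in shRALY. It fell 6.87-fold (log2 -2.78, SE 0.13; edgeR adjusted p = 7.81e-14). BUB1B, which encodes BUBR1, a part of the complex that inhibits the anaphase-promoting complex (chromosome 15, 40161023 to 40221136, plus strand), stood at 69.5 and 60.8 CPM in shControl and at 5.93 and 7.77 CPM in shRALY. It was the only member whose shRALY replicate 2 was the higher library of its group. Its fall was 9.55-fold (log2 -3.25, SE 0.16; edgeR adjusted p = 8.37e-14). A read-through transcript annotated as BUB1B-PAK6 covers 10.2% of BUB1B exonic bases on the same strand.

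**Figure D3:**
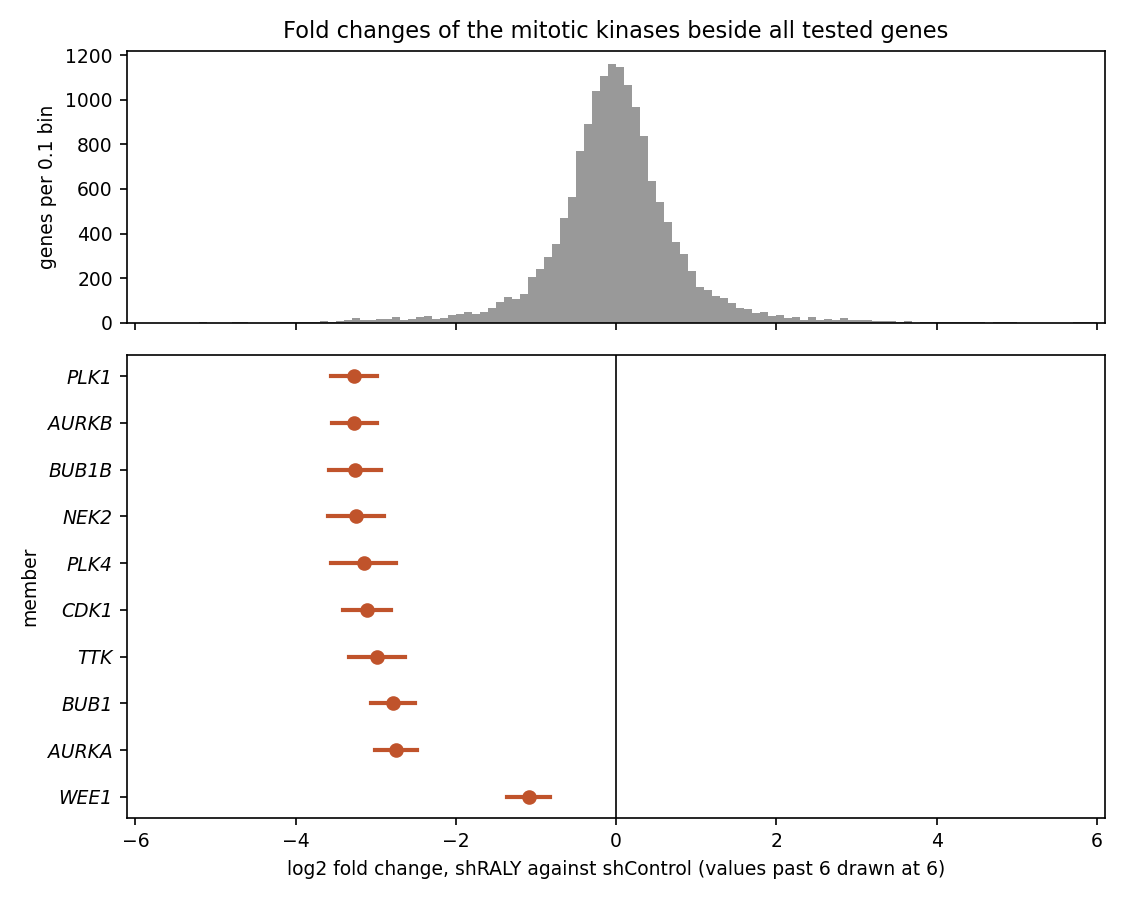
Top, number of tested genes per 0.1 step of log2 fold change (shRALY against shControl), with values past 6 drawn at 6; bottom, log2 fold change of each mitotic kinase gene with its 95% interval from the edgeR fit of 2 against 2 libraries. The intervals of 9 members lie between -3.60 and -2.48, and that of WEE1 between -1.36 and -0.82.

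The genes of the passenger complex fell by unequal amounts. BIRC5, which encodes survivin, fell 13.9-fold, from 186 ± 7.26 to 13.3 ± 1.83 CPM, and the AURKB to BIRC5 count ratio was 0.439 and 0.462 in shControl and 0.602 and 0.716 in shRALY. INCENP, the scaffold that activates AURKB, fell 6.28-fold, and the AURKB to INCENP ratio moved the other way, from 0.838 and 0.685 to 0.484 and 0.502. The ratio of AURKB to CDCA8, which encodes borealin, overlapped between groups, at 1.64 and 1.51 in shControl and 1.31 and 1.74 in shRALY. Of 8 listed partners of AURKA and AURKB, 6 were lower and 1 higher (20.4% and 20.6% of all tested genes). Their median log2 fold change was -2.71. The higher gene was AJUBA, a LIM-domain scaffold reported to assist AURKA, at 184 ± 3.63 and 295 ± 7.05 CPM in shControl and shRALY. NEDD9 did not pass, at 114 ± 0.30 and 98.3 ± 0.97 CPM, although it passed without shControl replicate 1 (edgeR adjusted p = 0.035) and with library size alone (edgeR adjusted p = 0.042).

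The checkpoint genes BUB1 and BUB1B were lower relative to their shared adaptor in shRALY. BUB3 went from 188 ± 18.8 to 98.9 ± 9.92 CPM, and the BUB1 to BUB3 count ratio was 0.543 and 0.597 in shControl and 0.162 and 0.150 in shRALY. The BUB1B to BUB3 ratio was 0.346 and 0.349 in shControl and 0.056 and 0.0846 in shRALY. CDC20, the activator of the anaphase-promoting complex that BUBR1 inhibits, fell 7.02-fold, and the BUB1B to CDC20 ratio was 0.450 and 0.370 in shControl and 0.273 and 0.328 in shRALY. KNL1, the kinetochore scaffold that TTK phosphorylates, fell 11.6-fold, and the TTK to KNL1 ratio was 0.828 and 0.800 in shControl and 1.31 and 1.07 in shRALY. None of these 4 ratios overlapped between groups, and each had an exact permutation p of 0.333. Of 11 listed checkpoint partners, 8 were lower and 0 higher by edgeR (20.4% and 20.6% of all tested genes). These partners also gave 8 lower and 0 higher by DESeq2 and at an unadjusted p under 0.05. Among them, MAD2L1, a core part of the checkpoint complex, fell 7.16-fold and TRIP13, which remodels it, fell by 2.20 on the log2 scale. MAD1L1, which anchors MAD2L1 at kinetochores, did not pass at 31.3 ± 4.27 and 27.6 ± 3.09 CPM, but was called lower without shControl replicate 1 (edgeR adjusted p = 0.0426).

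**Figure D4:**
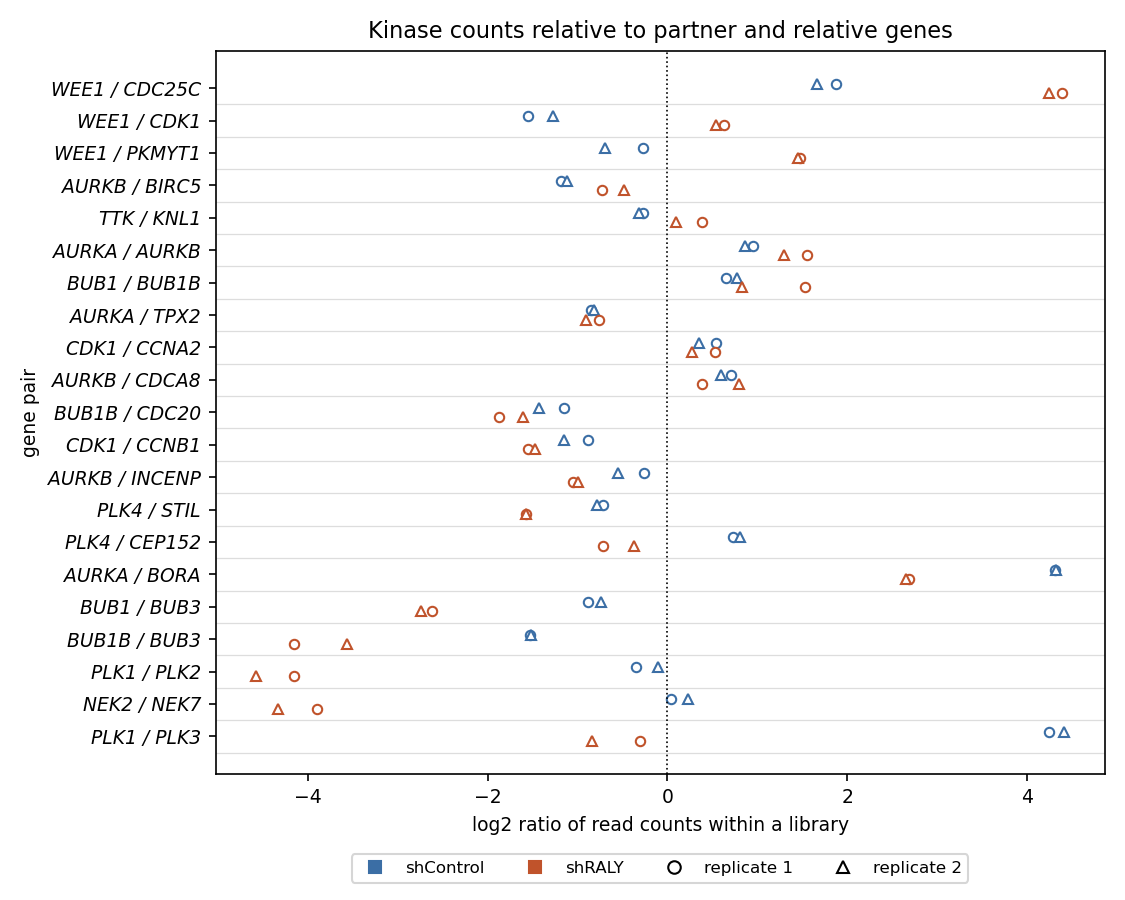
Log2 ratio of raw counts of 2 genes within each library for 21 pairs that each hold a mitotic kinase gene; blue is shControl, orange shRALY, circles and triangles are replicates 1 and 2. Pairs above AURKA / TPX2 have higher ratios in shRALY, and PLK1 / PLK3, at the bottom, moved most, from 18.9 and 21.3 to 0.807 and 0.560.

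Of the relatives of the members in the same kinase families, few were lower. Of 15 listed relatives 11 were tested, 4 were higher and 1 lower, with a median log2 fold change of 0.29. Shares over all tested genes were 20.6% higher and 20.4% lower, and with so few relatives the counts do not set them clearly apart. PLK2 and PLK3, polo-like kinases known as stress-responsive genes, rose 1.79-fold and 3.05-fold, PLK2 from 266 ± 18.0 to 476 ± 9.93 CPM and PLK3 from 11.3 ± 0.37 to 34.5 ± 0.97 CPM. The PLK1 to PLK2 count ratio was 0.786 and 0.931 in shControl and 0.0564 and 0.0420 in shRALY, and the PLK1 to PLK3 ratio went from 18.9 and 21.3 to 0.807 and 0.560. NEK7, a relative of NEK2 that also takes part in inflammasome assembly, rose 1.96-fold, and the NEK2 to NEK7 ratio went from 1.03 and 1.17 to 0.0672 and 0.0496. The lower relative was NEK4 (log2 -0.54, SE 0.14; edgeR adjusted p = 0.00381), whose exonic sequence is covered over 42.2% by a gene on the other strand. The call of NEK11, higher at 6.42 ± 0.95 and 9.37 ± 1.83 CPM (edgeR adjusted p = 0.0467), was lost by DESeq2 (adjusted p = 0.169), with library size alone (edgeR adjusted p = 0.0736), without shControl replicate 2 (edgeR adjusted p = 0.156) and without shRALY replicate 1 (edgeR adjusted p = 0.456). The NEK4 call did not hold when shRALY replicate 2 was left out (edgeR adjusted p = 0.11). NEK9 did not pass, at 123 ± 1.12 and 107 ± 5.95 CPM, except without shControl replicate 1 (edgeR adjusted p = 0.0438). AURKC, the germline relative of AURKA and AURKB, had 6 to 8 counts in each library and was not tested, and PLK5 had 0 in all 4, which allows at most 0.163 to 0.183 CPM for a floor of 3 counts. Such a floor covers counting error only.

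The 2 Aurora kinases and the 2 BUB genes could also be set against each other. The AURKA to AURKB count ratio was 1.94 and 1.82 in shControl and 2.94 and 2.45 in shRALY. The BUB1 to BUB1B ratio was 1.57 and 1.71 in shControl and 2.90 and 1.77 in shRALY, so the groups were separated by little. The 95% intervals of the log2 changes overlapped in all 36 pairs among the 9 members other than WEE1. Those of PLK1 (-3.56 to -2.98) and AURKA (-3.01 to -2.48) did so only at their ends. Overlap of intervals does not show that falls were equal. These intervals therefore do not settle whether the falls of the 9 members, from 6.69-fold to 9.65-fold, differed.

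Other kinases of cell division were lower with the members. Of 9 listed, 8 were lower and 0 higher by edgeR and by DESeq2 (8 and 1 at an unadjusted edgeR p under 0.05). The median log2 fold change was -1.36. At the adjusted edgeR threshold, 20.4% of all tested genes were lower and 20.6% higher. CIT, the citron kinase of cytokinesis, fell 12.8-fold, HASPIN, which marks centromeric histone H3 for AURKB, fell 9.77-fold, PBK fell 9.07-fold and MELK 3.78-fold. ITGAE, on the other strand, covers 15.3% of HASPIN exonic sequence. CHEK2, a kinase of the DNA damage response, stood at 12.1 ± 3.70 and 16.4 ± 1.45 CPM and did not pass. It passed as higher, at log2 0.80, when shControl replicate 1 was left out (edgeR adjusted p = 0.000565), with no filter on low counts (edgeR adjusted p = 0.0489) and with replicate as a blocking term (edgeR adjusted p = 0.0154).

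Phosphatases that reverse the work of the mitotic kinases showed no common direction. Of 18 listed genes, mostly subunits of PP1 and PP2A, 5 were higher and 5 lower. Their median log2 fold change was 0.02, where the 10 kinases had -3.13. The list also holds ENSA and ARPP19, which are inhibitors of PP2A and not phosphatases. ARPP19 (log2 -0.31) was among the lower genes, and ENSA did not pass. By the same rule 20.6% of all tested genes were higher and 20.4% lower, so these counts do not set the list clearly apart. PPP2R5B was higher at log2 1.05 and PPP2R2A, the B55 subunit that opposes CDK1, at log2 0.51, while PPP2R5D, PPP1CC and PPP2R5A were lower at log2 -0.93, -0.62 and -0.60. MEA1, on the other strand, covers 36.0% of PPP2R5D exonic sequence, which makes its counts uncertain. The remaining higher genes were PPP2CB (log2 0.42), CDC14B (0.40) and PPP2R1B (0.35). Each of these calls was lost in at least 1 fit that left out a library, where the log2 changes were 0.28 to 0.44. PPP2R1A, the scaffold subunit of PP2A, did not pass. It stood at 485 ± 19.0 and 434 ± 5.86 CPM, and was called lower without shControl replicate 1 (edgeR adjusted p = 0.0448). The count was 1 higher and 3 lower without shRALY replicate 1, with PPP2R2A among the calls lost (edgeR adjusted p = 0.0817), and without shRALY replicate 2 it was 3 higher and 3 lower.

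**Figure D5:**
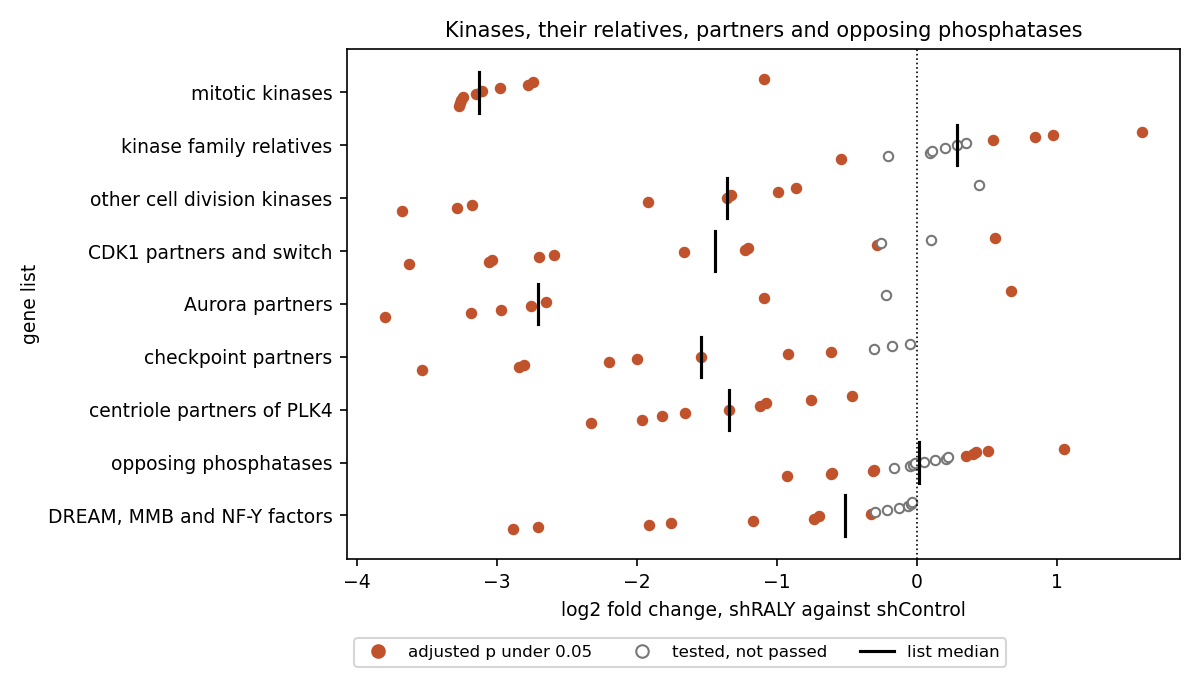
Log2 fold change (shRALY against shControl, edgeR fit of 2 against 2 libraries) of each tested gene in the mitotic kinase list and in 8 lists of relatives, partners, phosphatases and transcription factors; filled points had an adjusted p under 0.05 and black bars are list medians. The kinase median is -3.13 and the median of the phosphatase list, which includes the PP2A inhibitors ENSA and ARPP19, is 0.02.

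Factors that act on mitotic kinase promoters were lower in part. Of 14 listed factors, 8 were lower and 0 higher by edgeR, also at an unadjusted p under 0.05. By DESeq2, 7 were lower and 0 higher. The median log2 fold change by edgeR was -0.52. At the adjusted edgeR threshold, 20.4% of all tested genes were lower and 20.6% higher. FOXM1, the forkhead activator of G2 and M phase genes, fell 7.38-fold, from 150 ± 15.2 to 20.4 ± 0.76 CPM. ITFG2, on the other strand, covers 15.9% of FOXM1 exonic sequence. MYBL2 fell 6.55-fold, from 144 ± 6.85 to 22.0 ± 0.22 CPM. RBL1, which encodes the pocket protein p107, fell 3.78-fold, and TFDP1, the partner of E2F proteins, 2.25-fold. Not called were RBL2 (log2 -0.05), E2F4 (-0.13), LIN37 (-0.30), LIN52 (-0.06) and NFYC (-0.04). RBBP4 did not pass, at 129 ± 12.8 and 112 ± 0.19 CPM, but passed without shControl replicate 2 (edgeR adjusted p = 0.00481); it shares 25.7% of its 50-base words with another gene. The count of lower factors was 6 without shRALY replicate 1, where NFYA and LIN54 lost their calls.

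Levels can be compared between members only per length of transcript. In CPM per kilobase of merged exons, the shControl order was AURKA (54.0 ± 2.52, SD, n = 2), PLK1 (47.7 ± 2.48), AURKB (37.4 ± 0.12), CDK1 (31.8 ± 6.46), BUB1 (17.7 ± 0.57), NEK2 (16.8 ± 2.20), BUB1B (14.6 ± 1.36), TTK (9.70 ± 0.42), PLK4 (6.28 ± 0.88) and WEE1 (5.04 ± 0.32). Libraries of neighbours overlapped between BUB1 and NEK2 and between NEK2 and BUB1B, and not between the other neighbours. In shRALY the order was AURKA (8.04 ± 1.16), PLK1 (4.93 ± 1.12), AURKB (3.89 ± 0.06), CDK1 (3.69 ± 0.07), BUB1 (2.57 ± 0.40), WEE1 (2.36 ± 0.15), NEK2 (1.76 ± 0.34), BUB1B (1.53 ± 0.29), TTK (1.22 ± 0.27) and PLK4 (0.70 ± 0.07). WEE1 thus stood last of 10 in shControl and 6 of 10 in shRALY, while the order of the other 9 was the same in both groups. That order depends on the length used. Per kilobase of the longest transcript, PLK4 (7.33 CPM per kilobase) was last in shControl and WEE1 (8.98) just above it. By group means, AURKB and CDK1 then came before PLK1 in both groups. Their means changed places between shControl (66.9 and 64.2) and shRALY (6.95 and 7.44). The shControl libraries of CDK1, at 143 and 107 CPM before division by length, lay on either side of those of AURKB. In shControl replicate 2, CDK1 was below PLK1. The shControl order of these genes is therefore not settled at this length. With merged exons, libraries of neighbours in shRALY overlapped between BUB1 and WEE1, NEK2 and BUB1B, and BUB1B and TTK. These levels assume that all annotated exons of a gene are used.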

How the data were processed

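Raw read counts per Ensembl gene were deposited by the authors, 1 file for each of 4 A549 libraries (2 shControl, 2 shRALY), neither normalised nor pooled. HISAT2 2.0.5, featureCounts 1.5.0-p3, DESeq2 1.20.0 and hg38 are named in the submitters' processing notes, with no role or order. No source used here gives the annotation release, the strand setting or the handling of multi-mapping reads. Groups and replicate numbers come from the sample titles. All 58735 gene IDs matched GENCODE 29 (GRCh38), and 1 line split by a space was read as the others.

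The test was the quasi-likelihood F-test of edgeR 4.0.16 (R 4.3.3). Filtering used filterByExpr (minimum count 10, minimum total 15), scaling used TMM, and genes were fitted with robust quasi-likelihood estimation, no covariate and 2 residual degrees of freedom, over 15912 tested genes, with Benjamini-Hochberg adjustment over all of them. Standard errors were obtained as the absolute log2 change over the square root of F. Tests and intervals also used degrees of freedom borrowed from the spread of the other tested genes. The alternatives were DESeq2 1.42.0, RLE size factors, library size alone, leaving out each library, no low-count filter, a minimum of 10 CPM in 2 libraries, estimation without the robust option, and replicate as a blocking term. On simulated counts for this comparison (15782 genes tested), edgeR recovered 34.3%, 77.6% and 98.5% of genes changed by log2 0.5, 1 and 2, and 4.76% of its calls were unchanged genes. Every simulated gene had the same biological coefficient of variation. Only 67, 67 and 66 genes were changed by these amounts, drawn from genes with a mean count of at least 10. These settings differ from the data, so the rates need not hold for them. Total counts were 16745818 to 18632787 per library, and the biological coefficient of variation between replicates was 9.30%.

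The members and the lists of relatives, partners, phosphatases, factors and cell type markers were chosen with earlier results of these data known. Named genes are RALY, the 10 members, and from each list up to 4 called genes with the smallest adjusted p, genes called against most of their list, and the most abundant gene not called. Markers, partners in the 21 ratios and genes named because their call changed were added, and the ratios were chosen after the files were read. Sequence sharing was measured by how many 50-base words of a longest transcript recur in another gene. It was at most 5.9% in the members, and other genes overlapped at most 12.5% of their exonic bases.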

Additional observations from a re-analysis of the deposited data

How the results depend on the processing

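All 10 mitotic kinase genes stayed lower and past the threshold under each of the 11 alternatives, 110 of 110 values, and their median log2 fold change ranged from -3.23 to -2.97. The largest adjusted p among these values was 3.22e-05, for WEE1. The counts over all genes depended more on the shRALY libraries: with each library left out in turn, 2040 to 3559 genes were higher and 1897 to 3499 lower, against 3274 and 3245 with all 4. Scaling by library size alone gave 2894 higher and 3706 lower. The ratio of the highest to the lowest member level per kilobase in shControl, averaged over the 2 libraries, was 10.7 with merged exons, where WEE1 was lowest, and 9.71 with the longest transcript, where PLK4 was lowest. Of 506 values for the other named genes, 489 kept their call, 8 lost it and 9 gained one, and none changed sign.

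The labels give both groups the replicate numbers 1 and 2 but do not say that a number marks a shared culture or day. The deviations of same-numbered libraries from their group means correlated at r = 0.07 across 15912 genes. With the replicate block, 3639 genes were higher and 3619 lower, the 10 kinases all stayed lower, and their median was -3.13.

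Among the members PLK4 had the fewest reads, 62 and 48 in shRALY, and the widest standard error.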

Other observations

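Replicate 1 was the higher library for 9 of 10 mitotic kinase genes in shControl and for 9 of 10 in shRALY, after scaling. PLK1 was the exception in shControl and BUB1B in shRALY. Among all tested genes, replicate 1 was above replicate 2 in 50.6% in shControl and 46.9% in shRALY. The higher replicate exceeded the lower by a median of 1.09-fold in shControl and 1.24-fold in shRALY over the 10 genes. Among the 9 centriole partners of PLK4, replicate 1 was higher for 9 in shControl and for 4 in shRALY. Such gaps within a group are small beside the 6.69-fold to 9.65-fold falls of 9 members between groups, and they are closest in size to the 2.13-fold fall of WEE1, for which the gaps were 1.10-fold in shControl and 1.09-fold in shRALY.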
